A study of Rattus norvegicus with 4 samples.

Results

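The Egr genes Egr1, Egr2, Egr3 and Egr4 encode a family of zinc finger transcription factors, and their transcripts were followed here in single nuclei of the rat nucleus accumbens. The members were the 4 rows with these symbols among the 30560 genes of the deposited tables (Ensembl identifiers ENSRNOG00000019422, ENSRNOG00000000640, ENSRNOG00000017828 and ENSRNOG00000015719, in that order). They were chosen by name. The study asked, per its title, how populations of D1 medium spiny neurons respond to cocaine. Adult Sprague-Dawley rats aged 90 to 120 days received cocaine at 20 mg/kg or an equal volume of saline into the peritoneum on each of 7 days, and were placed in an open field after injection. Tissue was collected 1 h after the last injection as a 2 mm punch centred on the accumbens core. Frozen tissue of 4 rats was combined into each of 4 libraries, saline female, saline male, cocaine female and cocaine male, from 16 rats in all, and no genetic change is given for any group. Nuclei were stained with 7-AAD, sorted and profiled with 10x Genomics 3′ v3 chemistry, so a count is a unique molecular identifier (UMI) near the end of a nuclear transcript. Each treatment therefore has 2 libraries, 1 of each sex. In the main fits of cocaine against saline, a p-value rests on the spread between these pools and more heavily on the spread of the other genes.

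Egr genes are immediate-early genes, switched on within minutes of synaptic activity, growth factor or dopamine signals without the need for new protein. Calcium and ERK signalling act on serum response factor, which binds CArG boxes, and on CREB, which binds cAMP response elements (CREs). The EGR proteins then bind GC-rich sites in their target genes, and the co-repressors NAB1 and NAB2, of which Nab2 is itself an EGR target, restrain EGR1, EGR2 and EGR3. Egr1 is the most studied member in memory and in striatal responses to psychostimulants, Egr2 is best known for myelination by Schwann cells, Egr3 has roles in muscle spindle development and memory, and Egr4 is known from male fertility and neuronal activity. Medium spiny neurons (MSNs), the projection neurons of the accumbens, carry either the dopamine receptor Drd1, coupled to higher cAMP, or Drd2, coupled to lower cAMP.

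The sequences upstream of the start sites are shown because they carry the letters through which these genes are known to be induced. Whether these sequences bear on any value given here was not tested. They are the 250 bases before the annotated start in RefSeq's GRCr8 assembly, which differs from the build of the counts. They were matched by symbol for 3 of the 4 genes, and Egr3 had no entry. Capitals mark matches, on either strand, to the CArG box or to TGACG, the short form of the CRE. The Egr1 stretch lies at chr18:26736828-26737077 on the plus strand, the Egr2 stretch at chr20:21054442-21054691 on the minus strand, and the Egr4 stretch at chr4:119607818-119608067 on the minus strand.
Egr1: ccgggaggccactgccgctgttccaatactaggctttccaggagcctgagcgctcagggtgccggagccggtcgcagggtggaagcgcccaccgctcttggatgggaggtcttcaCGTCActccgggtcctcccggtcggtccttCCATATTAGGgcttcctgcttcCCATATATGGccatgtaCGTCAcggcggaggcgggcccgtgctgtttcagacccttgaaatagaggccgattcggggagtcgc
Egr2: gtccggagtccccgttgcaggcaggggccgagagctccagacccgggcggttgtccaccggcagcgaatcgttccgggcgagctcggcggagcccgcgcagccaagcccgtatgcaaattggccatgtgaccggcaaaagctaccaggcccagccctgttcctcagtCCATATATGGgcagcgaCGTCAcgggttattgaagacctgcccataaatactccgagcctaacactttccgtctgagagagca
Egr4: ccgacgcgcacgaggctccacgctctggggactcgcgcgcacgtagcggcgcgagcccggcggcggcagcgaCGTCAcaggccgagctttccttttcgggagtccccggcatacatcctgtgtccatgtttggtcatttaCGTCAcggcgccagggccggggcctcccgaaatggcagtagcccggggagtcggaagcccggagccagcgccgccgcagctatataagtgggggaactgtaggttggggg
Egr1 held 2 CArG boxes, at -105 to -96 and at -83 to -74 from the start, and 2 short CREs. Egr2 held 1 CArG box and 1 short CRE, and the box at -83 to -74 and the CRE at -66 to -62 stood at the same positions as in Egr1. Egr4 held no CArG box in this window and 2 short CREs, at -178 to -174 and at -110 to -106. Over 33469 RefSeq promoters of 300 bases, 1.64% held a CArG box, 21.2% a short CRE, 1.83% the full CRE TGACGTCA and 4.98% the EGR site GCGNGGGCG. Neither of the last was found in these 3 windows. The GC content over the 300 bases was 64.7% for Egr1, 59.0% for Egr2 and 68.0% for Egr4, against a median of 51.7%. A match is a description of letters, and absence of one says nothing of the factor.

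The libraries held 31484217 to 40737786 UMIs, and 24843 of 26228 barcodes were kept after filters and doublet removal, with 5904 to 6841 nuclei and median depths of 4205 to 4831 UMIs per library. Of 26147 distinct barcodes, 81 occurred in more than 1 library. Clustering, from which the 4 Egr genes and 41 other early genes were left out, gave 22 clusters, of which 17 were named from marker genes and carry "-like" for that reason. D1-MSN-like, D2-MSN-like and eccentric MSN-like nuclei made up 42.8% of nuclei and held 62.2% of UMIs. Glutamatergic-like nuclei, which lie outside the accumbens projection types, differed in number between libraries, at 30 in saline female, 49 in saline male, 253 in cocaine female and 118 in cocaine male.

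Egr transcripts were rare in single nuclei and came mostly from MSNs. Over all kept nuclei, 1645 UMIs of Egr1 were counted, 154 of Egr2, 171 of Egr3 and 1694 of Egr4. A UMI of Egr1 was seen in 5.01% of nuclei, of Egr2 in 0.443%, of Egr3 in 0.652% and of Egr4 in 3.41%. Any of the 4 was seen in 8.02% of nuclei. The 3 MSN classes held 75.6% of the Egr1 UMIs, 81.2% of those of Egr2, 86.0% of those of Egr3 and 86.4% of those of Egr4, against their 62.2% of all UMIs. Egr4 stood out by its UMIs per nucleus. It was seen at 3 or more UMIs in 147 nuclei and at up to 18, and averaged 2.00 UMIs per nucleus in which it was seen, against 1.32 for Egr1, 1.40 for Egr2 and 1.06 for Egr3.

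**Figure D1:**
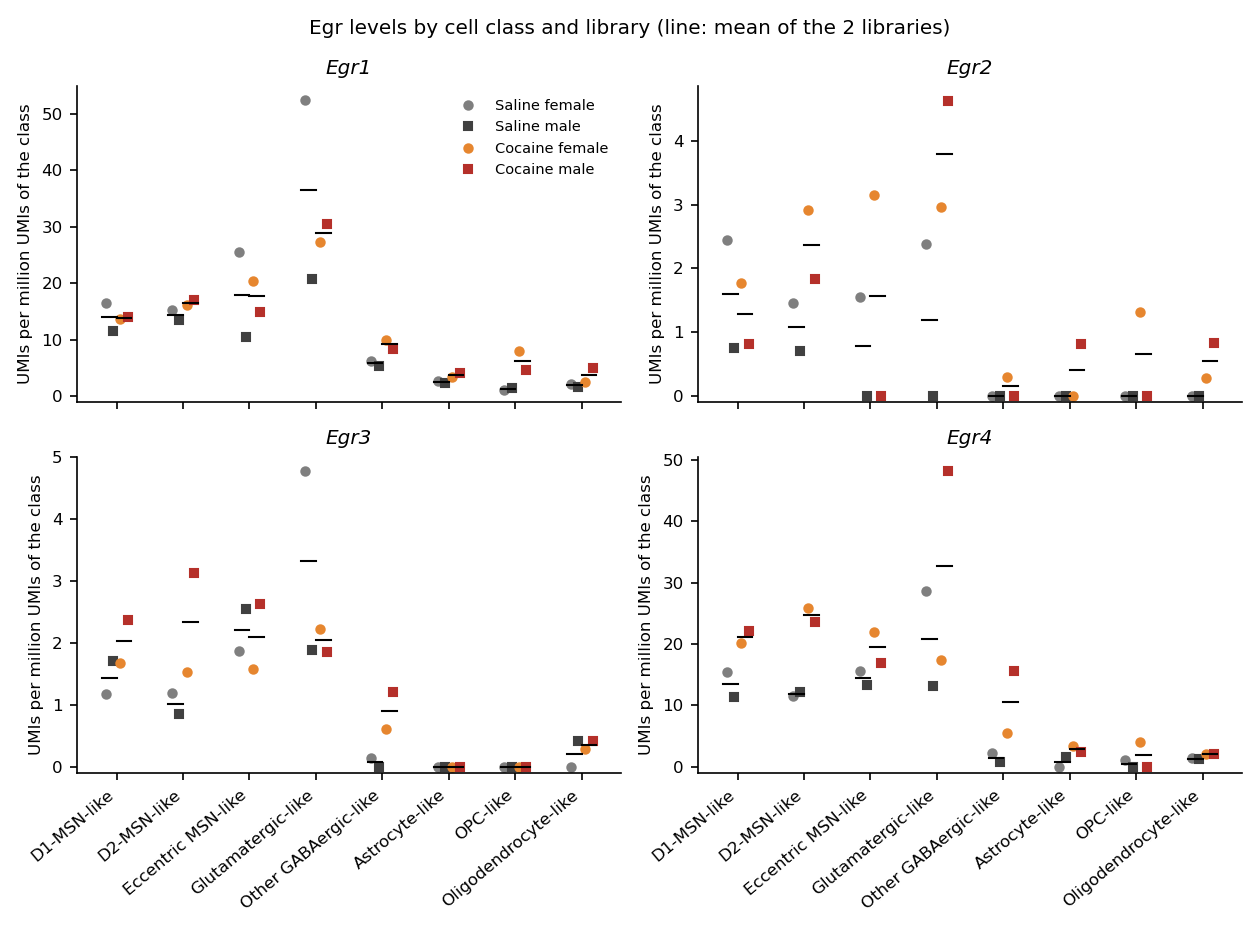
Level of each Egr gene in CPM (UMIs per 1000000 UMIs of all genes), in each cell class, with 1 point per library and a line at the mean of each treatment. Egr4 in D2-MSN-like nuclei lies at 11.5 and 12.2 in the saline libraries and at 25.8 and 23.6 in the cocaine libraries, while Egr1 in the same nuclei spans 13.5 to 17.0.

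Levels were expressed as CPM, the UMIs of a gene per 1000000 UMIs of all genes summed over the nuclei of a class in a library, and were compared between classes for 1 gene at a time. Among the named classes, the median level of Egr1 over the 4 libraries was highest in glutamatergic-like nuclei, at 29.0 CPM with a range of 20.7 to 52.4. Eccentric MSN-like nuclei followed at 17.7 (10.5 to 25.5), D2-MSN-like at 15.7 (13.5 to 17.0) and D1-MSN-like at 13.8 (11.5 to 16.6). These 4 ranges overlapped for every neighbouring pair. Other GABAergic-like nuclei, at 7.32 (5.38 to 10.0), lay below the D1-MSN-like range, and oligodendrocyte-like nuclei lay lowest of these, at 2.32 (1.68 to 4.97). A small cluster with no name, led by Adamtsl1, stood outside this order, with a median Egr1 level of 25.2 CPM (9.61 to 129).

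For Egr4 the order was glutamatergic-like at a median of 23.0 CPM (13.2 to 48.1), D2-MSN-like at 17.9 (11.5 to 25.8), D1-MSN-like at 17.8 (11.4 to 22.2) and eccentric MSN-like at 16.2 (13.4 to 22.0). Each of these ranges overlapped the next. Other GABAergic-like nuclei ranged from 0.717 to 15.6 CPM and oligodendrocyte-like nuclei from 1.26 to 2.07. Egr2 had medians of 2.67 CPM in glutamatergic-like, 1.64 in D2-MSN-like, 1.29 in D1-MSN-like and 0.777 in eccentric MSN-like nuclei. In the last it had 0 UMIs in both male libraries, which allows up to 0.956 CPM in saline male and 1.12 CPM in cocaine male. The order for Egr3 was eccentric MSN-like at 2.21, glutamatergic-like at 2.05, D1-MSN-like at 1.69 and D2-MSN-like at 1.36 CPM, again with overlapping ranges. Astrocyte-like nuclei, 1733 in all, held 17 UMIs of Egr1, 10 of Egr4 and 1 of Egr2. They held 0 of Egr3, which allows a level of up to 0.538 CPM by counting error alone. Between the D1-MSN-like and the D2-MSN-like class, in a fit with the library as a block, 0 of the 4 genes differed in level (quasi-likelihood test of edgeR, p-values adjusted by Benjamini-Hochberg over all genes tested), and 0 had an unadjusted p under 0.05, where 16.8% of 13241 genes passed. Their log2 differences, D2 minus D1, were 0.17 for Egr1, 0.29 for Egr2, -0.05 for Egr3 and 0.10 for Egr4.

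Egr4 rose with cocaine in D2-MSN-like nuclei. These held 87 UMIs of Egr4 in saline female, 87 in saline male, 204 in cocaine female and 181 in cocaine male. The levels were 11.5, 12.2, 25.8 and 23.6 CPM in that order, with means of 11.9 ± 0.512 CPM (SD, n = 2) after saline and 24.7 ± 1.57 CPM (SD, n = 2) after cocaine. Both cocaine libraries lay above both saline libraries. The log2 fold change was 1.02 (SE 0.15, edgeR adjusted p = 1.03e-05), and 1 of the 4 Egr genes passed where 0.746% of all 12729 genes tested did. At an unadjusted p under 0.05 edgeR had 3 of the 4, as it had 1284 of all genes, and DESeq2 called 0 of the 4. The size stayed between 0.93 and 1.11 with other scaling, filtering, doublet handling, clustering, a marker gate on each nucleus or other weights of nuclei and sub-clusters. The call was lost with DESeq2 (1.02, adjusted p = 1.00), without the sex covariate (adjusted p = 0.110), and, in fits without that covariate, without cocaine female (0.95, edgeR adjusted p = 0.360) or cocaine male (1.09, edgeR adjusted p = 0.307).

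In D1-MSN-like nuclei Egr4 was counted 132 times in saline female, 121 in saline male, 228 in cocaine female and 216 in cocaine male. The levels were 15.4, 11.4, 20.1 and 22.2 CPM, with means of 13.4 ± 2.81 CPM (SD, n = 2) after saline and 21.2 ± 1.45 CPM (SD, n = 2) after cocaine. Both cocaine libraries again lay above both saline libraries. The log2 fold change of 0.64 (SE 0.16) did not pass (edgeR adjusted p = 0.335). Beside 1 degree of freedom of the gene itself, the spread of the other genes weighed as 8.34 in this fit. In the fit of D2-MSN-like nuclei it weighed as 65.5, so the calls of both classes do not stand on equal terms. None of the 4 Egr genes passed in D1-MSN-like nuclei with edgeR or with DESeq2, where 0.0604% of 13248 genes passed with edgeR. At an unadjusted p under 0.05 edgeR had 1 of the 4, as it had 1107 of all genes. With no filter on low counts, where 0.790% of 20627 genes passed, the same change of Egr4 was called (0.64, edgeR adjusted p = 0.00153). Without saline female, which leaves 1 saline library, it was 0.87.

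The difference between both responses was itself tested. The cocaine effect on Egr4 in D2-MSN-like nuclei minus that in D1-MSN-like nuclei was 0.38 on the log2 scale (SE 0.19, edgeR adjusted p = 0.743), which did not pass. The same difference was 0.19 for Egr1 (SE 0.19), 1.40 for Egr2 (SE 0.60) and 0.66 for Egr3 (SE 0.60). The difference passed for 0 of the 4 genes and for 0.113% of 13241 genes. At an unadjusted p under 0.05 edgeR had 1 of the 4 (Egr2), as it had 899 of all genes. The intervals of these differences are wide, and neither a like nor an unlike response of both classes was shown.

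**Figure D2:**
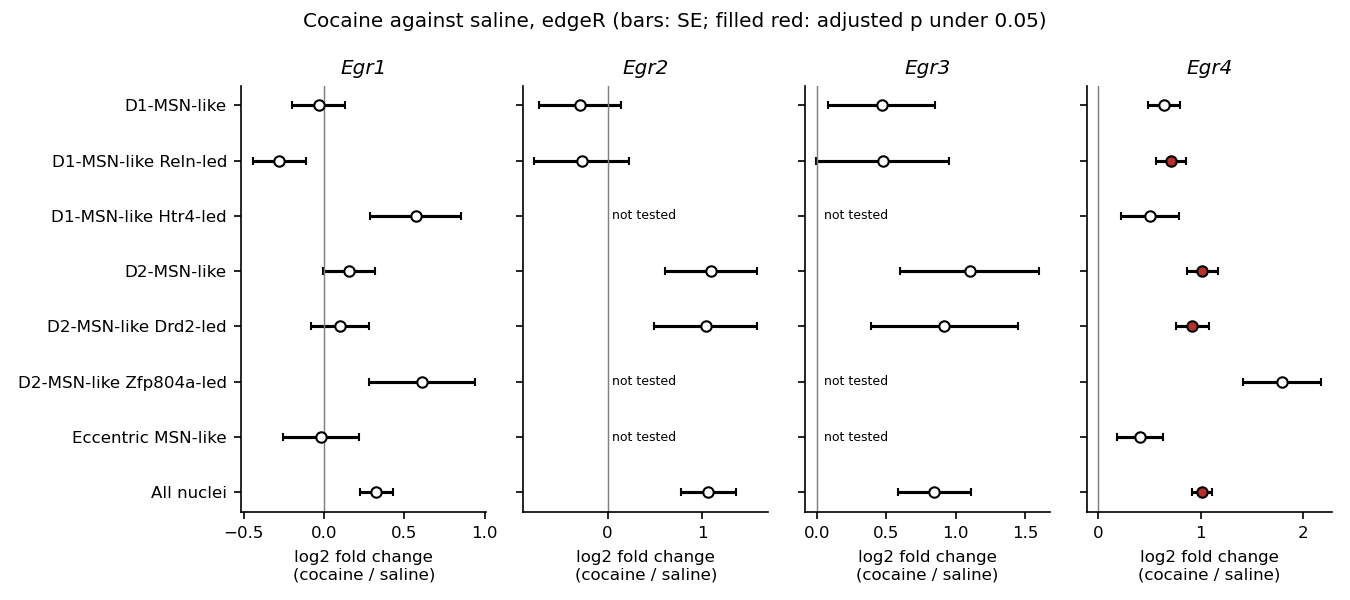
Log2 fold change of each Egr gene with cocaine against saline in the MSN classes, their clusters and all nuclei, with bars of 1 standard error; filled points passed at an adjusted p under 0.05. Egr4 is filled in D2-MSN-like nuclei (1.02), over all nuclei (1.02) and in the Reln-led and Drd2-led clusters (0.71 and 0.92) and not in D1-MSN-like nuclei (0.64), while Egr1 lies near 0 in D1-MSN-like and eccentric MSN-like nuclei.

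In eccentric MSN-like nuclei Egr4 stood at 15.5, 13.4, 22.0 and 16.9 CPM in saline female, saline male, cocaine female and cocaine male, from 50, 42, 70 and 45 UMIs. The log2 fold change was 0.41 (SE 0.23, edgeR adjusted p = 0.689). Of the 2 Egr genes that could be tested there, Egr1 and Egr4, 0 passed with edgeR or DESeq2 and 0 had an unadjusted p under 0.05, where 0.165% of 11495 genes passed. In other GABAergic-like nuclei, Egr4 stood at 2.17, 0.717, 5.46 and 15.6 CPM from 16, 2, 18 and 26 UMIs. The groups did not overlap, and the log2 fold change was 2.29 (SE 0.57, edgeR adjusted p = 0.580). Of 2 genes tested, 0 passed with edgeR or DESeq2, where 0.0329% of 12166 genes passed with edgeR. At an unadjusted p under 0.05 edgeR had 1 of the 2, as it had 639 of all genes. The change of Egr4 was called with no filter (2.29, edgeR adjusted p = 0.00304), where 0.313% of 19811 genes were. Without saline female, which leaves 1 saline library, it was 3.61. In glutamatergic-like nuclei the 4 levels, 28.6, 13.2, 17.4 and 48.1 CPM, overlapped between treatments. There 0 of the 2 genes tested, and 0% of 8661 genes, passed with edgeR, 221 genes had an unadjusted p under 0.05, and DESeq2 called none.

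Summed over all nuclei, Egr4 stood at 8.35 CPM in saline female, 8.55 in saline male, 16.0 in cocaine female and 18.6 in cocaine male. It rose by 1.02 on the log2 scale (SE 0.10, edgeR adjusted p = 0.0412), 1 of 4 Egr genes called where 0.0484% of 16524 genes were. All 4 had an unadjusted p under 0.05 with edgeR, as had 2190 of all genes, and DESeq2 called 1 of the 4. With the glutamatergic-like nuclei left out the change was 0.99 (edgeR adjusted p = 0.000184). In that fit 2.6% of 16384 genes passed, so its smaller adjusted p is not particular to Egr4. More transcribing cells, more RNA per cell and changed shares of the classes cannot be told apart in such sums. Each fit without 1 library, all without the sex covariate, lost the call (0.91 to 1.12).

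In D2-MSN-like nuclei the share of nuclei with an Egr4 UMI moved less than the UMI sum. Egr4 was seen in 48 nuclei (6.39%) in saline female, 50 (5.19%) in saline male, 76 (7.60%) in cocaine female and 77 (6.94%) in cocaine male. Tested as numbers of nuclei in place of UMIs, the log2 fold change was 0.46 (edgeR adjusted p = 0.681). Nuclei with 3 or more UMIs numbered 9, 6, 21 and 18 in the same order. They held 49.4%, 42.5%, 69.6% and 63.0% of the Egr4 UMIs of the class, and the mean per nucleus with Egr4 was 1.81, 1.74, 2.68 and 2.35 UMIs. Both cocaine libraries exceeded both saline libraries in each of these measures. In D1-MSN-like nuclei the shares were 5.93%, 5.81%, 7.23% and 7.86%, and the nuclei with 3 or more UMIs numbered 14, 10, 18 and 20 of 827, 1342, 1356 and 1336 nuclei. As a share of nuclei the last was highest in saline female, and the treatments overlapped. The mean per nucleus with Egr4, at 2.69, 1.55, 2.33 and 2.06 UMIs, overlapped as well.

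**Figure D3:**
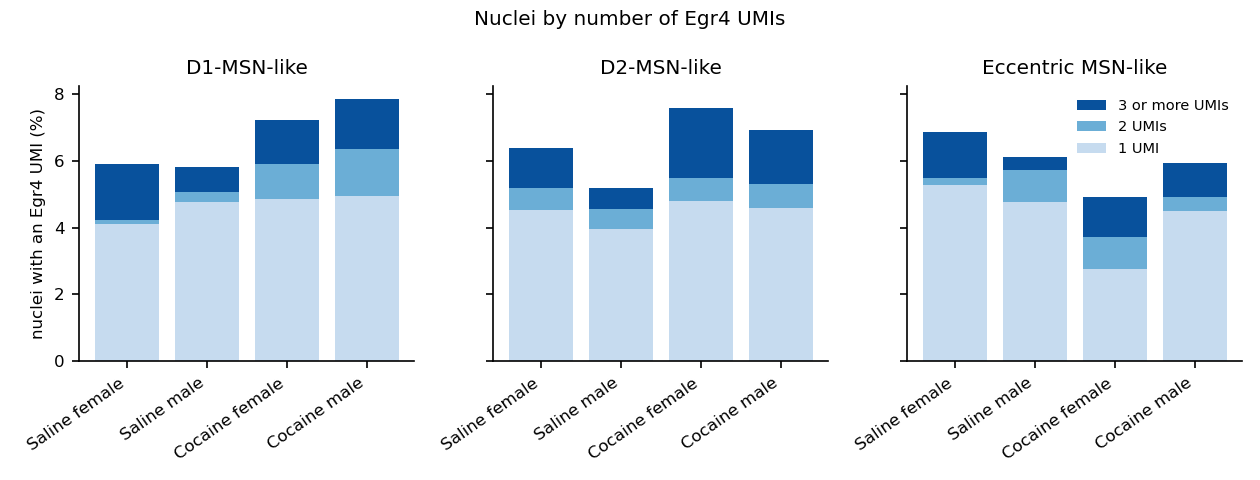
Share of nuclei with 1, 2 or at least 3 Egr4 UMIs in each library, for the 3 MSN classes. In D2-MSN-like nuclei the nuclei with at least 3 UMIs number 9 and 6 after saline and 21 and 18 after cocaine.

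Depth differed between classes and libraries, so shares were also compared after thinning. Median UMIs in D2-MSN-like nuclei were 9657 in saline female, 6920 in saline male, 7392.5 in cocaine female and 6290 in cocaine male, and in D1-MSN-like nuclei 9952, 7370.5, 7858 and 6730.5. At 4000 UMIs per nucleus Egr4 would be seen in 3.40%, 3.42%, 5.12% and 5.16% of D2-MSN-like nuclei and in 3.26%, 3.61%, 4.50% and 5.35% of D1-MSN-like nuclei. The cocaine libraries lay above the saline libraries in both classes at matched depth. Oligodendrocyte-like nuclei, a class with few Egr transcripts, give the background. Egr4 was seen in 0.302%, 0.229%, 0.367% and 0.344% of them at median depths of 2000, 1622, 1694 and 1512.5 UMIs. At 1000 UMIs per nucleus the shares were 0.158%, 0.157%, 0.205% and 0.223%. They were 1.03%, 1.03%, 1.89% and 1.76% of D2-MSN-like and 1.20%, 1.08%, 1.57% and 1.93% of D1-MSN-like nuclei. In oligodendrocyte-like nuclei too, both cocaine libraries thus lay above both saline libraries, on 21 Egr4 UMIs in all. This order of the background was not tested.

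The D1-MSN-like and the D2-MSN-like class each joined 2 clusters, which were fitted apart after the data had been seen. Within D1-MSN-like nuclei, the cluster led by Reln, the gene of the secreted protein reelin, had Egr4 at 16.6, 14.9, 26.7 and 26.1 CPM, and Egr4 rose there by 0.71 (SE 0.14, edgeR adjusted p = 0.00230), 1 of 4 Egr genes where 1.60% of genes passed. The cluster led by Htr4, a serotonin receptor gene, had Egr4 at 11.7, 7.11, 10.4 and 14.8 CPM, which overlapped between treatments (0.51, edgeR adjusted p = 0.747). In that cluster 0 of the Egr genes tested, and 0.481% of all genes, passed. The difference of the cocaine effect on Egr4 between both clusters was -0.25 (SE 0.30, edgeR adjusted p = 1.00). Their levels did differ over the 4 libraries. The log2 difference, Htr4-led minus Reln-led, was -1.01 for Egr4 (SE 0.14, edgeR adjusted p = 7.46e-05) and -1.71 for Egr2 (SE 0.48, edgeR adjusted p = 0.0197). These were 2 of 4 genes, where 18.2% of genes passed. The Reln-led cluster took in 93.8% of D1 sub-cluster 5, a group of 144 nuclei marked by early genes and described below. That group held 32.9% of the Egr4 and 59.6% of the Egr2 UMIs of D1-MSN-like nuclei. Its part in the values of the Reln-led cluster was not tested. The rise in the Reln-led cluster was not called with DESeq2, without the sex covariate, or without saline male (0.63), cocaine female (0.66) or cocaine male (0.75).

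Within D2-MSN-like nuclei, the large Drd2-led cluster had Egr4 at 10.8, 12.6, 24.3 and 21.4 CPM. This was a rise of 0.92 (SE 0.16, edgeR adjusted p = 2.28e-05), 1 of 4 Egr genes where 0.773% of genes passed. The cluster took in 100.0% of D2 sub-cluster 1, described below, which held 43.8% of the Egr4 UMIs of D2-MSN-like nuclei. The small cluster led by Zfp804a, a zinc finger gene, held 69, 99, 73 and 96 nuclei and had Egr4 at 18.6, 8.44, 46.8 and 48.0 CPM. The groups did not overlap, and the log2 fold change of 1.79 (SE 0.38) did not pass (edgeR adjusted p = 0.0713), where 0.137% of genes did. It passed with RLE scaling (edgeR adjusted p = 0.00595), where 0.324% of genes did, and with no filter (1.76, edgeR adjusted p = 0.00188), where 0.198% did. Without saline female, which leaves 1 saline library, the log2 fold change was 2.43. Over all libraries Egr1 was higher in this cluster than in the Drd2-led one by 1.11 (SE 0.20, edgeR adjusted p = 1.19e-05) and Egr4 by 0.71 (SE 0.21, edgeR adjusted p = 0.00731), where 22.6% of genes differed. The call in the Drd2-led cluster was lost with DESeq2, without the sex covariate, and without cocaine female (0.81) or cocaine male (1.02).

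Finer sub-clusters placed the Egr4 UMIs more closely. D2 sub-cluster 1, led by Reln and with Nr4a3 among its leading genes, held 15.9% of the class and 43.8% of its Egr4 UMIs. Egr4 stood there at 21.2, 28.8, 63.4 and 78.0 CPM from 32, 29, 79 and 105 UMIs in 144, 129, 150 and 184 nuclei. It rose by 1.49 (SE 0.23, edgeR adjusted p = 6.05e-08), where 0.955% of genes passed. This call held without any 1 of the 4 libraries (1.27 to 1.72, edgeR adjusted p = 2.58e-06 to 0.0316) and was lost with DESeq2 (1.49, adjusted p = 1.00). For Egr1 in the same sub-cluster the log2 fold change was 0.62 (edgeR adjusted p = 0.452). In D2 sub-cluster 4, led by Casz1 and Htr7, Egr4 stood at 17.8, 8.56, 46.3 and 48.9 CPM and rose by 1.82 (SE 0.38, edgeR adjusted p = 0.0266), where 0.237% of genes passed; without saline male the change was 1.39 (edgeR adjusted p = 0.112) and without cocaine male 1.77 (edgeR adjusted p = 0.108), and DESeq2 did not call it. Of this sub-cluster 95.7% lay in the Zfp804a-led cluster, where the change did not pass (edgeR adjusted p = 0.0713). In the other sub-clusters where Egr4 was tested, its log2 fold changes were 0.56, 0.54, -0.01 and 0.07 in D1 sub-clusters 0, 1, 2 and 3 and 0.90 and 1.01 in D2 sub-clusters 0 and 3, and did not pass. D2 sub-cluster 2 held 2, 24, 0 and 3 Egr4 UMIs in saline female, saline male, cocaine female and cocaine male. D2 sub-clusters 5 and 6 held 3, 4, 7 and 3 and 1, 3, 3 and 2 in that order.

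A small group, D1 sub-cluster 5, singled out after its values were seen, held the densest Egr signal. It was led by Nr4a3, Pcsk1, Reln, Nr4a1 and Fosb, although the early genes had been left out of the clustering genes. It numbered 21, 18, 56 and 49 nuclei in saline female, saline male, cocaine female and cocaine male, which was 2.54%, 1.34%, 4.13% and 3.67% of D1-MSN-like nuclei. With 2.96% of the class it held 32.9% of its Egr4 UMIs, 59.6% of those of Egr2, 15.7% of those of Egr3 and 12.3% of those of Egr1. Egr4 UMIs numbered 31, 17, 117 and 64, or 126, 107, 228 and 177 CPM, and were seen in 52.4%, 27.8%, 55.4% and 42.9% of its nuclei. The Egr4 level and the number of nuclei were both higher in the cocaine libraries. It was too small for a test, and since early genes mark it, its size is not independent of their response.

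With the sub-cluster that had Nr4a3 among its leading genes left out of each class (D1 sub-cluster 5 and D2 sub-cluster 1), an alternative added after seeing the data, the log2 fold change of Egr4 was 0.22 (edgeR adjusted p = 0.820) in the D1-MSN-like class and 0.68 (edgeR adjusted p = 0.0532) in the D2-MSN-like class. The D2-MSN-like class thus lost its call, while the D1-MSN-like class had no called change with its sub-cluster kept either. These sub-clusters were picked by an early gene that rose with cocaine. They held 32.9% and 43.8% of the Egr4 UMIs of their class, so the smaller changes are no independent result.

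**Figure D4:**
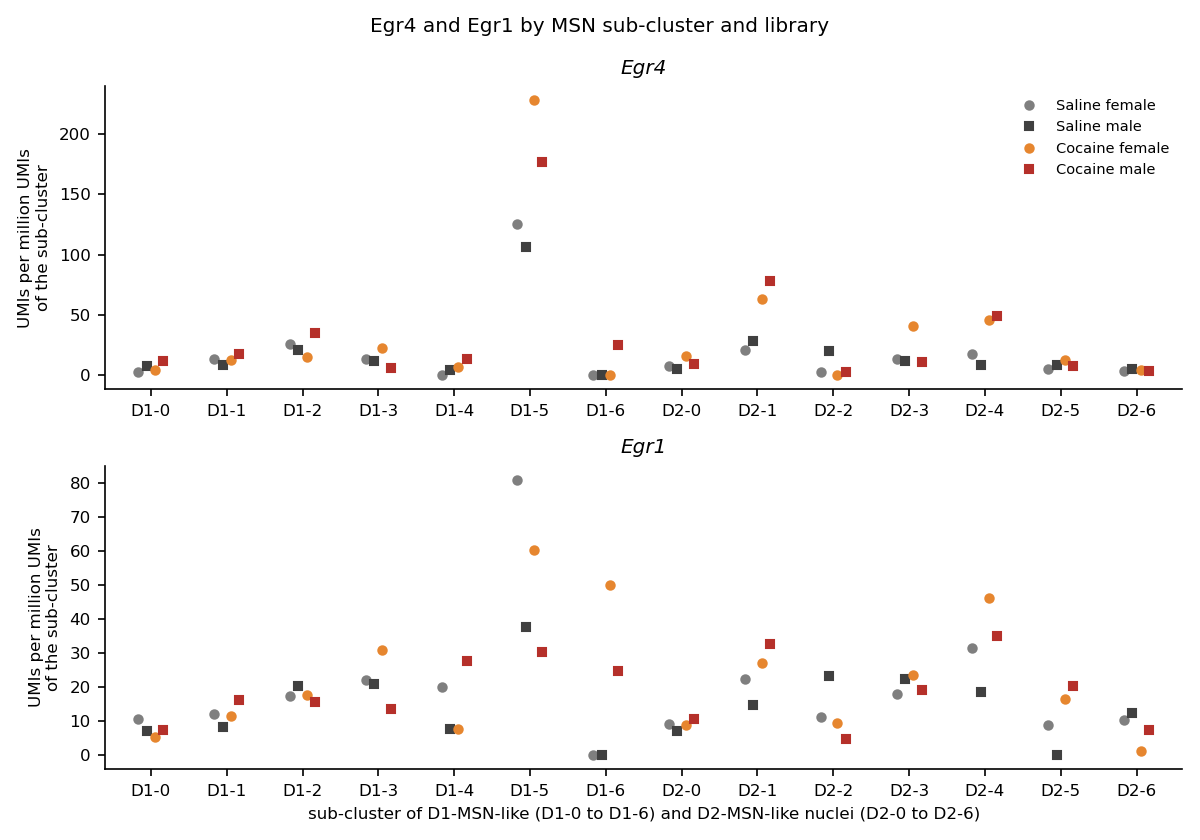
Egr4 and Egr1 levels in CPM in each sub-cluster of the D1-MSN-like and the D2-MSN-like class, with 1 point per library. The highest Egr4 levels lie in D1 sub-cluster 5, at 107 to 228, and the D2 sub-cluster 1 stands at 21.2 and 28.8 after saline and at 63.4 and 78.0 after cocaine.

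Egr1, the member most often taken as a marker of activity, had the most positive nuclei and showed no called change. In D1-MSN-like nuclei it stood at 16.6, 11.5, 13.7 and 14.0 CPM from 142, 122, 155 and 136 UMIs, with both cocaine libraries inside the saline range. The log2 fold change was -0.03 (SE 0.16, edgeR adjusted p = 0.976), and it turned to 0.24 without saline female and to 0.26 with the marker gate. In D2-MSN-like nuclei it stood at 15.3, 13.5, 16.1 and 17.0 CPM (0.15, edgeR adjusted p = 0.829). The cocaine libraries were higher there by less than the fit could separate. In eccentric MSN-like nuclei Egr1 ranged from 10.5 to 25.5 CPM, both in saline libraries, and the log2 fold change was -0.02 (edgeR adjusted p = 0.996). Over all nuclei it stood at 12.0, 9.72, 14.2 and 13.3 CPM (0.33, edgeR adjusted p = 0.264).

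The counts of Egr1 also came from a cluster that had no name. It was led by Adamtsl1 and numbered 42, 108, 84 and 79 nuclei. Egr1 was counted 7, 4, 38 and 2 times in it, or at 37.3, 13.0, 129 and 9.61 CPM, and in cocaine female 22.6% of its nuclei had a UMI. The 7 Egr2 and 3 Egr3 UMIs of this cluster were all in cocaine female, so the high values rest on 1 library, and no Egr gene passed the count filter for a test.

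Egr2 and Egr3 had few UMIs, and neither passed for cocaine against saline in the D1-MSN-like or the D2-MSN-like class. In D2-MSN-like nuclei Egr2 was counted 11, 5, 23 and 14 times, or at 1.45, 0.703, 2.91 and 1.83 CPM, and its log2 fold change was 1.09 (SE 0.48, edgeR adjusted p = 0.397). Egr3 was counted 9, 6, 12 and 24 times there, or at 1.19, 0.843, 1.52 and 3.13 CPM, and its log2 fold change was 1.10 (SE 0.50, edgeR adjusted p = 0.417). For both genes the treatments did not overlap, but neither did they for Egr1 in the same nuclei, which had no called change. How many of all genes show such an order was not counted, so it is a description only. The estimates were close to that of Egr4, and the errors were larger. In D1-MSN-like nuclei the libraries of Egr2, at 2.45, 0.755, 1.77 and 0.822 CPM, were high in both female libraries and low in both male libraries, and the log2 fold change was -0.29 (SE 0.43, edgeR adjusted p = 0.892). Its sign turned without saline female (0.78) or cocaine male (0.18) and with the marker gate (1.07). Egr3 stood at 1.17, 1.70, 1.68 and 2.36 CPM in D1-MSN-like nuclei (0.47, SE 0.38, edgeR adjusted p = 0.775).

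The female and male libraries, 2 of each, were compared in the same fits. Egr2 had a log2 difference, female minus male, of 1.42 in D1-MSN-like nuclei (SE 0.44, edgeR adjusted p = 0.295), 0.80 in D2-MSN-like nuclei (edgeR adjusted p = 0.471) and 1.01 over all nuclei (edgeR adjusted p = 0.141). Egr1 in eccentric MSN-like nuclei had a difference of 0.86 (edgeR adjusted p = 0.192). No Egr gene passed in D1-MSN-like, D2-MSN-like or eccentric MSN-like nuclei or over all nuclei, where 0.0906%, 1.81%, 0.130% and 0.169% of genes did. Sex was measured with 1 library per sex and treatment, and other differences between these pools cannot be told apart from it.

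The 4 genes were often seen in the same nuclei. Over the 10641 nuclei of the 3 MSN classes, Egr2 and Egr4 were both seen in 52, where 5.76 would share them if each gene fell on nuclei regardless of the other. Of the 88 nuclei with Egr2, 59.1% also had Egr4, against 6.11% of nuclei without Egr2, while 7.46% of the nuclei with Egr4 had Egr2. Egr1 and Egr4 were both seen in 199 nuclei (61.4 by the same reckoning), Egr1 and Egr2 in 45 (7.76), Egr1 and Egr3 in 41 (12.3), Egr3 and Egr4 in 38 (9.17) and Egr2 and Egr3 in 8 (1.16). Each of the 6 pairs was seen together more often than this reckoning gives.

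Deep nuclei show more of every gene, so the ratio of seen to reckoned nuclei was also taken after thinning to 4000 UMIs. It was then 12.4 for Egr2 with Egr4, 7.34 for Egr1 with Egr2, 4.94 for Egr3 with Egr4, 4.34 for Egr1 with Egr4 and 3.32 for Egr1 with Egr3. For Egr2 with Egr4 it was 18.3 in saline female, 6.18 in saline male, 11.8 in cocaine female and 10.9 in cocaine male. For Egr1 with Egr4 it was 5.74, 3.11, 4.86 and 3.70. The ratios were above 1 in all 4 libraries for both pairs, and the treatments overlapped. For Egr3 with Egr4 it was 6.67 and 5.00 after saline and 3.88 and 4.58 after cocaine, which did not overlap and was not tested. These values rest on 6, 8, 9 and 15 nuclei before thinning. By class, D1-MSN-like nuclei kept this order, D2-MSN-like nuclei overlapped and eccentric MSN-like nuclei had the reverse order. Within D1 sub-cluster 5, which held 13 of the 24 D1-MSN-like nuclei with both Egr2 and Egr4, the ratio was lower, at 1.98 for Egr2 with Egr4 and 1.73 for Egr1 with Egr4. Over the 3 MSN classes the ratio for Egr2 with Egr3 was 15.9, 14.1, 12.3 and 1.07, on 3, 1, 3 and 1 nuclei before thinning. These are descriptions, since nuclei of 1 library share its tissue and no replicate beyond the 4 libraries stands behind them.

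**Figure D5:**
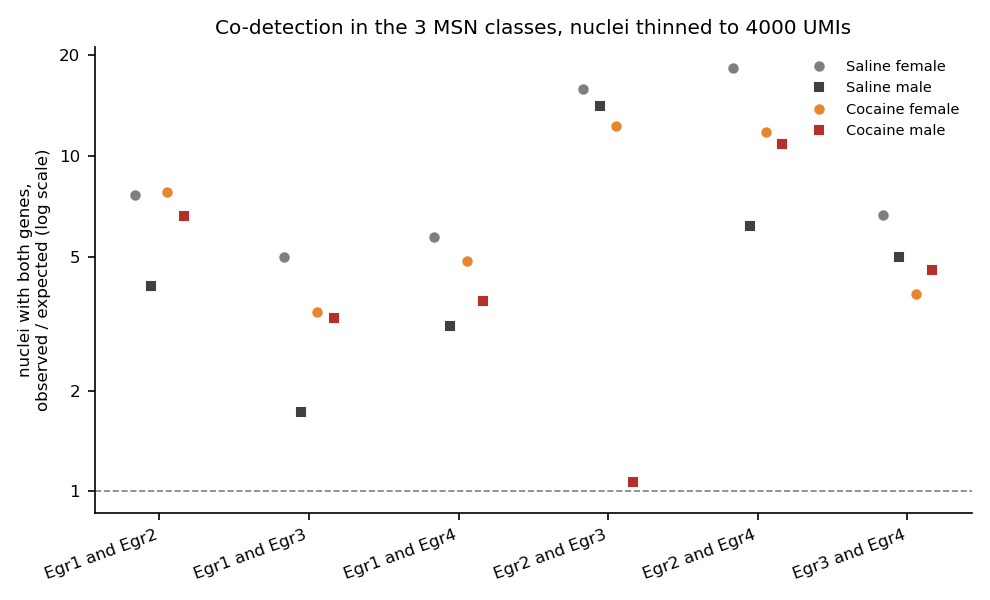
Ratio of the number of MSN nuclei with UMIs of both genes to the number given by their separate shares, for the 6 pairs of Egr genes after thinning to 4000 UMIs, with 1 point per library on a log axis. Egr2 with Egr4 lies between 6.18 and 18.3, and the treatments overlap.

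Nuclei with at least 2 of the 4 genes numbered 27 in saline female, 19 in saline male, 35 in cocaine female and 36 in cocaine male among D1-MSN-like nuclei, and 18, 14, 35 and 33 among D2-MSN-like nuclei. As shares of nuclei these were 3.27%, 1.42%, 2.58% and 2.69% in D1-MSN-like nuclei, highest in saline female and overlapping between treatments. In D2-MSN-like nuclei they were 2.40%, 1.45%, 3.50% and 2.98%, without overlap and not tested. They came to 2.41% and 2.62% of these classes, against 27.8% of the Nr4a3-led D1 sub-cluster. Depth moved with this count, since MSN nuclei with any Egr UMI had a median of 8068 UMIs and those with none 7093, and its part in these counts without thinning was not tested.

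Activity-induced early genes outside the Egr family passed in each of the 3 MSN classes with edgeR. Of 41 listed, 33 could be tested in D1-MSN-like nuclei, and 3 rose and 0 fell, where 0.0604% of all genes passed. These were Nr4a3, an orphan nuclear receptor gene (2.03, edgeR adjusted p = 7.46e-05), Pcsk1, a prohormone convertase gene (1.24, edgeR adjusted p = 0.0139), and Scg2, a granin of secretory granules (0.58, edgeR adjusted p = 0.0439). In D2-MSN-like nuclei 7 of 32 rose and 0 fell, where 0.746% of all genes passed. Nr4a3 rose by 1.44 (edgeR adjusted p = 1.14e-15), Pcsk1 by 1.00 (edgeR adjusted p = 1.03e-05), Junb, of the AP-1 factors, by 0.57 (edgeR adjusted p = 0.00119) and Scg2 by 0.43 (edgeR adjusted p = 0.00172). Btg2, an antiproliferative early gene, rose by 2.36 and Nr4a1, a relative of Nr4a3, by 0.59 (both edgeR adjusted p = 0.00256). In eccentric MSN-like nuclei 3 of 29 rose and 0 fell, where 0.165% of all genes passed, namely Nr4a3 (1.64), Pcsk1 (2.38) and Scg2 (0.76). DESeq2 called 2, 1 and 0 genes of the list in D1-MSN-like, D2-MSN-like and eccentric MSN-like nuclei, so most of these calls were lost with it. The median log2 fold change of the list was 0.493, 0.395 and 0.555 in D1-MSN-like, D2-MSN-like and eccentric MSN-like nuclei, against 0.000823, 0.000685 and 0.00499 over all genes tested.

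Among listed partners, upstream regulators and targets of the EGR proteins, 1 gene passed in these 3 classes. Over all genes tested, 1107, 1284 and 934 had an unadjusted edgeR p under 0.05 in D1-MSN-like, D2-MSN-like and eccentric MSN-like nuclei. Of the 8 co-regulators tested in each of these classes 0 passed with edgeR, 0 had an unadjusted p under 0.05, and DESeq2 called 0. Nab1 had log2 fold changes of 0.20, -0.21 and -0.26 and Nab2 of -0.07, 0.06 and -0.14 in D1-MSN-like, D2-MSN-like and eccentric MSN-like nuclei. Of the 25 tested genes of the SRF, ETS, CREB and ERK routes to Egr transcription 0 passed with edgeR, 2 in each class had an unadjusted p under 0.05, and DESeq2 called 0, and the medians were -0.0602, -0.0396 and -0.00671. Of genes reported as EGR targets, 22, 22 and 18 were tested. Among them Nr4a1, already counted with the early genes, rose in D2-MSN-like nuclei, and none of the others passed with edgeR. On the same list 4, 3 and 2 of all had an unadjusted p under 0.05, and DESeq2 called 0. The list's medians were 0.0695, 0.0154 and 0.033. Of the myelin genes known as EGR2 targets in Schwann cells, 4, 5 and 4 were tested and 0 passed with edgeR, 1, 0 and 0 had an unadjusted p under 0.05, and DESeq2 called 0.

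The genes whose levels most resembled each Egr gene were ranked by Pearson correlation of log2(CPM + 1) over 48 sums, 12 classes in 4 libraries, among 14725 genes. Sums of 1 library share its depth and tissue, and sums of 1 class its cell type, so the values are descriptions. For Egr4 the nearest was Arc, an activity-induced gene of the postsynapse (0.896), with Rprml (0.835), Enkur (0.811) and Fosb (0.808) also among the 5 nearest. Arc was nearest to Egr3 as well (0.815), where Egr4 itself (0.756) and Homer1, a scaffold gene of the postsynapse (0.743), were among the 5. For Egr2 the 5 nearest were Fosb (0.727), Arc (0.699), Egr1 (0.683), Nr4a3 (0.678) and Egr3 (0.677). For Egr1 the 5 nearest were Chrm1, a muscarinic receptor gene (0.801), Homer1 (0.775), R3hdm1 (0.772), Cracdl (0.771) and Ddn (0.763). After each class mean was subtracted, which leaves differences between libraries, the nearest were Rapgef2 for Egr1 (0.788), Tiparp for Egr2 (0.808), Ctso for Egr3 (0.752) and Rundc1 for Egr4 (0.710).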

How the data were processed

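The authors deposited, for each of the 4 libraries, a matrix of raw UMI counts per gene and nucleus, made with Cell Ranger 6.1.2 per the file headers. The rat build rn7 is given per the submitters' processing notes. How reads were aligned, whether introns were counted and which annotation served is not given in the sources used here, so counts of near-identical or overlapping genes are uncertain. The members and gene lists were chosen with earlier results of these data known.

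A nucleus was kept if it showed 200 genes or more and no more than 5% mitochondrial UMIs, and the highest Scrublet scores were removed at 0.8% per 1000 nuclei (4.97% to 5.81%). Clustering (scanpy 1.11.5, leidenalg 0.10.2) used 2000 variable genes without the early genes, 30 components and resolution 0.5. Clusters were named from 102 of 107 listed markers found in the tables, with score limits set after the clusters were seen. Counts were summed per library and class. Cocaine was compared with saline, with sex as covariate, by edgeR 4.0.16 (R 4.3.3; filterByExpr, TMM, quasi-likelihood test, Benjamini-Hochberg adjustment over all genes tested, threshold 0.05), which leaves 1 residual degree of freedom. DESeq2 1.42.0 was an alternative. An exact permutation test of 2 against 2 libraries cannot go below p = 0.333. Where treatments are said not to overlap, this is a description, and its share over all genes was not taken. The edgeR test was tried on simulated counts with a fixed dispersion and no sex effect, where only genes with more UMIs than Egr2 or Egr3 were changed. That trial does not cover Egr2, Egr3 or the real spread between the pools. Differences between classes were fitted with the library as a block. Shares were thinned with numpy 2.4.6 and scipy 1.17.1 by expectation over draws of 1000, 2000 or 4000 UMIs, leaving out shallower nuclei. A count of 0 allows up to 3 counts, for counting error only. Named beside the Egr genes were, from each list, up to 6 genes per direction with the smallest adjusted p among those that passed, Nab1 and Nab2, and the 5 genes of most similar level, where those with only an identifier were left unnamed. Promoters came from RefSeq GRCr8.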

Additional observations from a re-analysis of the deposited data

Results flagged for a closer look

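Within sexes, 6 ratios of the cocaine library to the saline library pointed in opposite directions in female and male libraries, among Egr genes with at least 10 UMIs per sex. Each sex has 1 library per treatment, so the differences were not tested. Values are log2 ratios of CPM, and the difference is male minus female. In D1-MSN-like nuclei Egr1 was at -0.27 in females and 0.28 in males, a difference of 0.55, and Egr2 was at -0.47 and 0.12, a difference of 0.59. In eccentric MSN-like nuclei Egr1 was at -0.32 and 0.51, a difference of 0.82, and Egr3 at -0.22 and 0.05, a difference of 0.28. In glutamatergic-like nuclei Egr1 was at -0.96 and 0.52, a difference of 1.48, and Egr4 at -0.76 and 1.79, a difference of 2.54. The glutamatergic-like values rest on 30 to 253 nuclei per library.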

How the results depend on the processing

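Leaving out a library with sex kept as covariate leaves no residual degree of freedom and was not run as a test, so those fits had no sex covariate, and a lone library was assumed to vary like the other treatment's. The labels number no replicates, so libraries could be matched by sex alone. Sex is the covariate of the main fits, which thus compare the treatments within sex. Fits of the Reln-, Htr4-, Drd2- and Zfp804a-led clusters, without 1 library, and without D1 sub-cluster 5 and D2 sub-cluster 1 or glutamatergic-like nuclei were chosen after seeing the data. Egr4 in D2-MSN-like nuclei kept its direction throughout (0.95 to 1.09 without 1 library) but lost its call with DESeq2 (1.02, SE 0.33), without the sex covariate (1.02), as nuclei with a UMI (0.46) and without D2 sub-cluster 1 (0.68). Egr4 over all nuclei lost it without the sex covariate (1.02) and without 1 library (0.91 to 1.12). Egr4 in D1-MSN-like nuclei gained a call with no filter (0.64), and its range without 1 library was 0.42 to 0.87. The cause was not tested. Uncalled values changed sign as follows. In D1-MSN-like nuclei, Egr1 was 0.26 with the marker gate, 0.0023 with equal weight per nucleus and -0.29 to 0.24 without 1 library. Egr2 was 1.07 with the gate, 0.18 as nuclei with a UMI and -0.94 to 0.78 without 1 library, and Egr3 was -0.040 with the gate. In D2-MSN-like nuclei Egr1 was -0.00044 without D2 sub-cluster 1. In eccentric MSN-like nuclei Egr1 was 0.052 with DESeq2, 0.037 with no doublets removed, 0.030 at resolution 1.0, 0.19 as nuclei with a UMI and -0.51 to 0.73 without 1 library, and Egr4 was -0.13 as nuclei with a UMI. In glutamatergic-like nuclei Egr1 was -0.92 to 0.34 and Egr4 -0.28 to 1.16 without 1 library, and Egr4 was -0.55 with no doublets removed. Egr2 in the Reln-led D1 cluster was -1.20 to 0.73 without 1 library, and the D2 minus D1 difference for Egr1 was -0.0010 to 0.34. With 5 to 24 UMIs per library of Egr2 and Egr3 in the D1-MSN-like and the D2-MSN-like class, estimates as large as that of Egr4 did not pass.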
